A study of Mus musculus with 17 samples.

Results

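The genes described here encode parts of the axoneme, the microtubule core of the sperm flagellum, and factors that help to assemble it. They were taken as the rows of the RNAseq table whose symbol begins with *Dnah*, *Dnal* or *Dnaaf* (axonemal dyneins and their assembly factors), *Cfap* (cilia and flagella associated proteins), *Tekt* (tektins), *Rsph* (radial spoke proteins) or *Drc* (dynein regulatory complex), each followed by a number where the family is numbered. The rule also allowed *Dnai* followed by a number, which no row carried. It found 58 of 23362 rows, all with reads. The 58 rows stand for 56 symbols, because *Dnah14* is listed under 3 identifiers (ENSMUSG00000104003, ENSMUSG00000102669 and ENSMUSG00000047369), and 1 row, *Dnah2os*, is an antisense transcript within *Dnah2* and not an axoneme gene.

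RNA came from decapsulated testes of C57/Bl6 mice, either *Inha* WT (WT, 3 animals: 79783, 79811 and 79852) or *Inha* KO (3 animals: 79781, 79813 and 79853). *Inha* encodes the inhibin alpha subunit, and all KO samples lack it from the germline onwards. From each KO animal 3 regions were microdissected by eye: tubules away from any tumour (N, for 'normal'), tubules beside a tumour (TAT, tumour associated tubules) and the tumour itself (TM), the last 2 being recognised by their blood vessels. No treatment was given. The age label gives postnatal day 48 to 52 and the treatment protocol 53 to 55. KO animal 79813 contributed several pieces (2 N, 2 TAT and 4 TM libraries), which were summed, so that each group held 3 animals and 17 libraries became 12. Each piece is a mixture of cells, and in such bulk samples fewer cells of a type and less RNA per cell cannot be told apart.

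The axoneme is built of 9 outer doublet microtubules around a central pair. Outer and inner dynein arms on the doublets generate sliding, and the nexin-dynein regulatory complex, the radial spokes and the central apparatus shape it into a beat. Tektins and several CFAPs line the doublet wall and lumen, and dynein arms are put together in the cytoplasm by assembly factors before they are carried to the flagellum. In the testis, transcripts of many of these genes appear in meiotic spermatocytes and accumulate in round spermatids, before the tail is built. Factors of the RFX family, which bind X-box sequences, are known regulators of ciliary genes.

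X-box spellings were therefore looked for in the RefSeq promoters (GRCm38.p6, 250 bases before to 50 after the start of a gene). A promoter was held for 47 of the 56 symbols and for 27025 genes in all. The X-box element GTTGCC, on either strand, was present in 16 of the 47 (34.0%), against 14.1% of all genes. The longer spelling GTTNCC followed by any 3 bases and GNAAC was present in 5 of the 47 (10.6%), against 0.936% of all genes. These 5 were *Cfap44*, *Cfap45*, *Cfap61*, *Dnaaf2* and *Tekt4*, and the match lay before the start in 3 of them. Their windows of 40 bases are shown because this long spelling was more frequent among the axoneme genes than among all genes, with the match in capitals (all 3 read on the other strand):

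Cfap44: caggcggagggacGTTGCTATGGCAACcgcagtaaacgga

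Cfap45: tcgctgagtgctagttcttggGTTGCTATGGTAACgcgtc

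Dnaaf2: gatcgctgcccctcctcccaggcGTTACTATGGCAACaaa

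The *Cfap44* window lies on the plus strand at chr16:44394759-44394798 and its match begins 27 bases before the start. That of *Cfap45* lies on the plus strand at chr1:172521090-172521129, with the match 19 bases before the RefSeq start and inside the longer GENCODE M21 span of the gene. That of *Dnaaf2* lies on the minus strand at chr12:69198430-69198469, with the match 17 bases before the start. A match describes letters only and is not evidence of binding. The other spellings searched overlap with these or with each other. GTTGCCA was present in 19.1% of the members against 5.02% of all genes, GTTGCCAT in 8.51% against 1.54%, GTTNCCAT in 21.3% against 5.12%, GTTNCC followed by ATGG in 4.26% against 1.33%, GTNNCC followed by ATGG and NAAC in 0 of 47 against 0.448%, and GTNNCC followed by NNGG and NAAC, which on the other strand reads GTTNCC followed by NNGG and NNAC, in 4.26% against 1.49%. The CRE spelling TGACGTCA, bound by CREM, a regulator of spermatid genes, was present in 2.13% against 2.03%, TGACGTNA in 2.13% against 3.36% and TGACG in 14.9% against 23.0%. MYB spellings were present in 21.3% against 11.4% (TAACTG), 12.8% against 3.15% (CCGTTA) and 2.13% against 4.71% (AACTGNCA), and CCAAT in 46.8% against 41.1%. Over these 16 spellings no test was made.

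*Inha* had a level of 54.7, 75.6 and 66.2 CPM (counts scaled to a library of 1e+06 after TMM scaling) in the WT animals and of 0.553 to 5.88 CPM in the 9 KO samples, below every WT animal. Summed libraries held 6349355 (WT animal 79783) to 65236050 counts, and 9735 (TM of animal 79853) to 668528 of these fell on the 58 rows. WT animal 79783 was the shallowest and had the lowest or joint lowest WT level for 49 of the 58 rows, against 67.6% of all genes. Both figures include ties at 0. Among the 50 rows with at least 10 CPM in the other WT animals it was under 50 percent of their mean for 10 (20%), against 13.1% of all genes, so WT values are given for each animal. Fold changes come from edgeR's quasi-likelihood test with Benjamini-Hochberg adjustment over all genes tested. Calls required a fold change above 1.5 together with an adjusted p below 0.05.

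Summed over the 58 rows, axoneme transcripts were at 9060, 13389 and 12230 CPM in WT and at 11274, 12329 and 10809 CPM in N. They were at 6320, 9400 and 4979 CPM in TAT of animals 79781, 79813 and 79853, and at 1156, 2854 and 715 CPM in TM of the same animals. N lay within the range of WT, and all TM values lay below all others. Of the summed level in N of the same animal, TAT held 56.1%, 76.2% and 46.1%, and TM held 10.3%, 23.1% and 6.62%. The libraries taken singly (scaled over all 17, which shifts the level of a library) ranged from 10484 to 12295 CPM among WT libraries and from 10604 to 11969 CPM among those of N, while TAT libraries had 5495 to 9521 CPM and TM libraries 668 to 3820 CPM. The 4 TM pieces of animal 79813 had 2328, 3448, 3820 and 2808 CPM, and each of them was above the TM pieces of the other animals (1136 and 668 CPM).

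**Figure D1:**
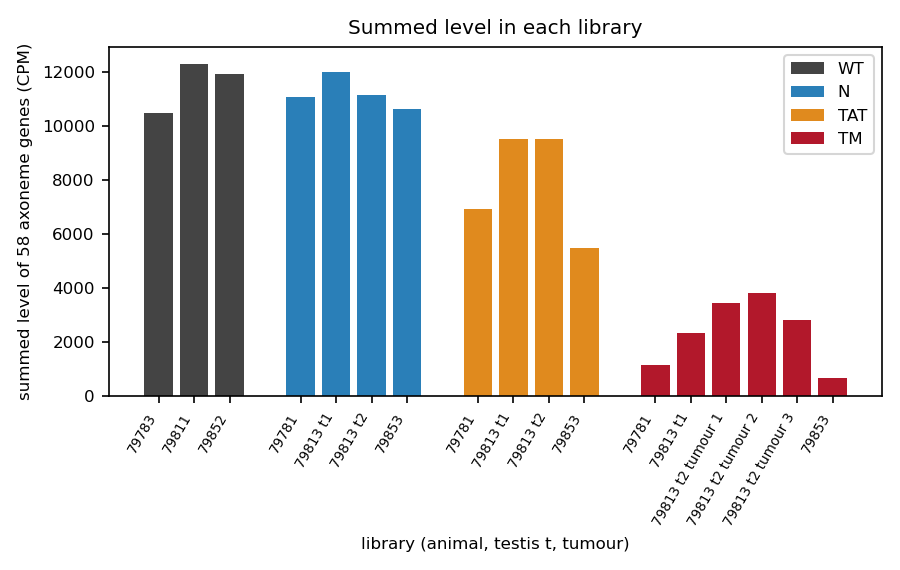
Summed level of the 58 axoneme rows (y axis, CPM after TMM scaling over 17 libraries) in each library (x axis, animal with testis and tumour), coloured by group. Bars start at 0; WT and N libraries reach 10484 to 12295 CPM, TAT 5495 to 9521 CPM and TM 668 to 3820 CPM.

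The first comparison asked whether axoneme transcripts were altered in KO tubules that look normal. Of the 58 rows none was called higher or lower in N against WT by edgeR, where 0.0202% of 19791 genes were called higher and 0.0202% lower. By DESeq2 none was called either, where 0.788% of genes were called higher and 0.293% lower. Of the 58, 1 had an unadjusted p under 0.05 (*Dnah2os*), against 7.59% of all genes. The median log2 fold change of the 58 was -0.11, against 0.03 over all genes. After *Dnah2os*, the smallest p values belonged to *Cfap20*, a protein of the doublet inner junction (log2 fold change -0.40 ± 0.27 SE, adjusted p = 0.828), *Cfap58* (-0.66 ± 0.64, adjusted p = 0.945), *Dnah14* ENSMUSG00000102669 (1.21 ± 1.24, adjusted p = 0.953) and *Dnal4* (-0.29 ± 0.33, adjusted p = 0.970).

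The second comparison concerned tubules beside the tumours. No row was called in TAT against WT by edgeR, where 14.4% of genes were called higher and 4.61% lower. The fold change was below 0 for 55 of the 58 rows, against 47.9% of all genes, with a median of -0.71 against 0.07 over all genes, and 6 rows had an unadjusted p under 0.05, against 34.9% of all genes. The rows with the smallest p values were *Cfap20* (-0.65 ± 0.27 SE, adjusted p = 0.107), *Cfap69*, of the central apparatus (-1.35 ± 0.57, adjusted p = 0.115), *Tekt5* (-1.45 ± 0.62, adjusted p = 0.117), the assembly factor *Dnaaf3* (-1.31 ± 0.59, adjusted p = 0.133) and *Rsph10b* (-0.91 ± 0.41, adjusted p = 0.137). The count of 0 depended on the fit, as did the share of all genes called lower. By DESeq2 11 rows were called lower (13.7% of all genes), and 22 when only the TAT and WT libraries were fitted (14.9%). Without animal 79813, whose TAT held more of these transcripts than that of the other animals, 18 were called lower (11.2%).

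Within the KO animals, with the animal as a block, no row was called in TAT against N by edgeR, nor was any other gene (0% higher and 0% lower of 19293). DESeq2 called 12 rows lower and none higher, where it called 9.65% of all genes lower and 9.78% higher. The fold change was below 0 for 54 of the 57 rows tested, with a median of -0.76 against 0.03 over all genes, and 3 had an unadjusted p under 0.05, against 23.4% of all genes: *Dnah7b* (-0.86 ± 0.36 SE, adjusted p = 0.203), *Rsph10b* (-0.83 ± 0.35, adjusted p = 0.206) and *Rsph9* (-0.72 ± 0.31, adjusted p = 0.209). All TAT values lay below all N values for 40 of the 58 rows, against 21.4% of all genes.

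In TM, 51 of the 58 rows were called lower than in WT and none higher, where 30.6% of genes were called lower and 27.8% higher. By edgeR 52 rows had an unadjusted p under 0.05, against 64.1% of all genes. DESeq2 called 50 lower and 1 (*Dnah11*) higher, where 32.8% of genes were called lower and 30.6% higher. The median log2 fold change was -2.78, against -0.07 over all genes. All TM animals lay below all WT animals for 53 of the 58 rows, against 28.3% of all genes. The 51 rows held a median of 12.2% of their WT mean in TM (4.92% to 41.0%), 58.2% in TAT (35.9% to 79.3%) and 97.2% in N (66.4% to 139%). Without any 1 of the animals 44 to 53 rows were called lower, where 21.5% to 31.1% of all genes were. The median log2 fold change then ranged from -3.94 (without animal 79813) to -2.34 (without animal 79853).

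Against N of the same animals, 52 of 57 rows were called lower in TM, where 28.5% of 19293 genes were, and 1 was called higher (*Dnah2os*), where 24.9% were. Against TAT, 46 of 57 were called lower, where 17.7% of genes were, and none higher, where 7.65% were. In that comparison 50 rows had an unadjusted p under 0.05 by edgeR, against 40.3% of all genes. DESeq2 called 50 lower and 1 higher, where 25.6% of genes were called lower and 16.2% higher. The 5 rows with the smallest p against TAT were *Rsph9* (-2.14 ± 0.32 SE), *Rsph10b* (-2.31 ± 0.38), *Rsph3a* (-2.10 ± 0.35), *Dnah7a* (-2.32 ± 0.39) and *Cfap43* (-2.21 ± 0.38), each with an adjusted p of 0.0164. The counts, more than the size of the change, depended on animal 79781. Without it, which leaves 2 animals, the median log2 fold change was -3.13 (against -3.26 with it) in TM against N and -2.29 (against -2.37) in TM against TAT, and 56 of 58 rows were below 0 in each. In that fit edgeR called 12 rows lower in TM against N (7.31% of all genes). It called 0 in TM against TAT, where it called 0 of 20616 genes and 36 rows had an unadjusted p under 0.05. The size of the change moved more when another animal was left out. In TM against N the median was -4.11 without animal 79813 and -2.35 without 79853, and in TM against TAT -3.04 and -1.86.

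**Figure D2:**
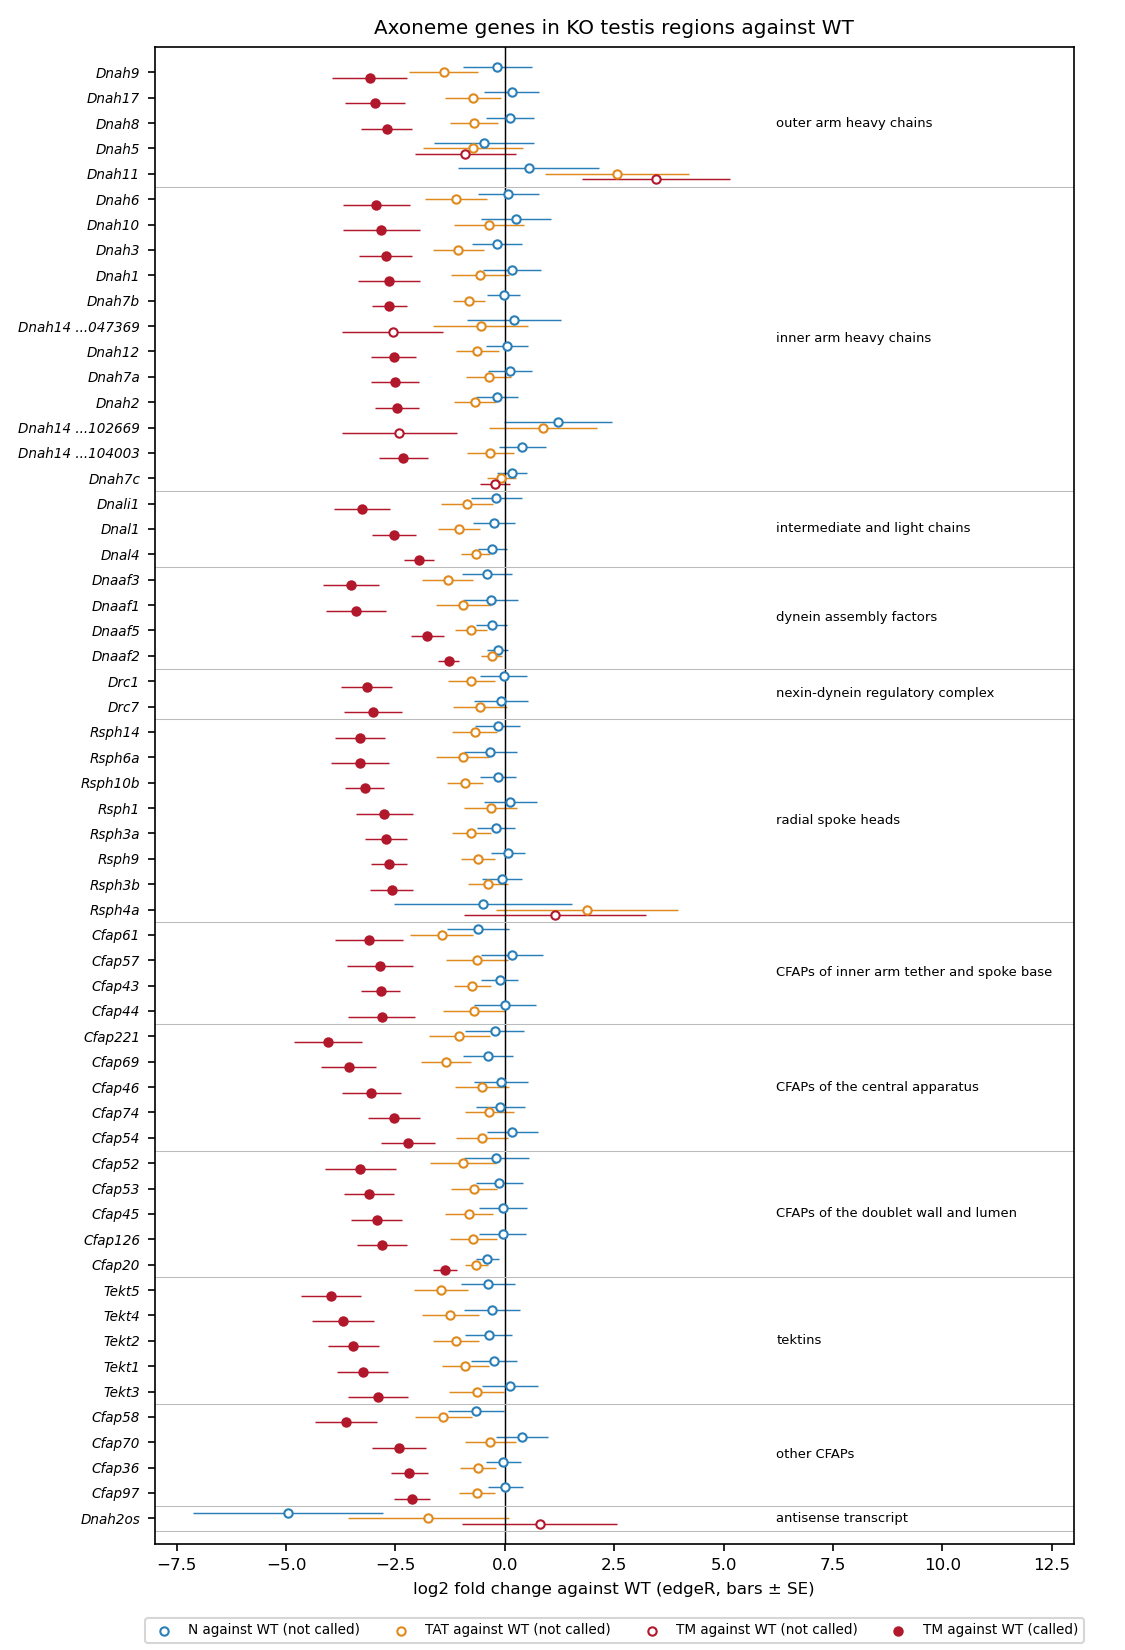
Log2 fold change against WT (x axis, edgeR, bars ± SE) of the 58 rows in N, TAT and TM, ordered by role (y axis). Filled points were called changed; these are the 51 TM points below 0, while *Dnah7c* lies near 0 in all 3 regions and the wide bars belong to rows with few reads.

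Among the outer arm heavy chains, 3 of 5 were called lower in TM against WT, where 30.6% of all genes were. The outer arms of the sperm tail use *Dnah8* and *Dnah17*, and those of airway cilia *Dnah5*, *Dnah9* and *Dnah11*. *Dnah8* was at 224, 243 and 326 CPM in WT, 251, 312 and 347 in N, 134, 245 and 96.5 in TAT and 23.8, 75.0 and 14.0 in TM. All TM animals lay below all others, and TAT of animal 79813 lay within the WT range. The change of *Dnah8* in TM against WT was -2.70 ± 0.59 SE on the log2 scale (adjusted p = 0.00204). *Dnah17* was at 45.7, 45.2 and 58.4 CPM in WT, 52.8, 62.1 and 62.7 in N, 24.4, 41.0 and 22.9 in TAT and 4.46, 11.9 and 0.808 in TM, a change of -2.97 ± 0.68 (adjusted p = 0.00271). In TAT it was below WT in all animals, and lowest in TM.

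*Dnah9* was present at lower levels, at 6.45, 8.99 and 8.55 CPM in WT, 6.16, 7.91 and 8.48 in N, 2.19, 4.63 and 2.01 in TAT and 0.970, 1.52 and 0 in TM (-3.09 ± 0.85 SE, adjusted p = 0.00813). It was thus called lower like the sperm chains, but not when only TM and WT were fitted or without animal 79781. *Dnah5* had between 0 and 96 counts in a sample and *Dnah11* between 0 and 22, and neither was called (log2 fold change in TM -0.91 ± 1.15, adjusted p = 0.513, and 3.45 ± 1.69, adjusted p = 0.0949). *Dnah11* had 0, 0 and 4 counts in WT and 21, 19 and 5 in TM, and it overlaps with *Cdca7l*, at a mean of 6.97 CPM in WT and 12.5 CPM in TM. Per kilobase of the longest annotated transcript, WT levels were 15.8 ± 3.24 (SD, n = 3) CPM for *Dnah8*, 3.33 ± 0.498 for *Dnah17*, 0.579 ± 0.0985 for *Dnah9*, 0.119 ± 0.0293 for *Dnah5* and 0.00465 ± 0.00806 for *Dnah11*. In that order of levels no neighbours overlap between WT animals. Priming at the poly(A) tail does not spread reads over a transcript evenly, which limits such a comparison between genes.

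**Figure D3:**
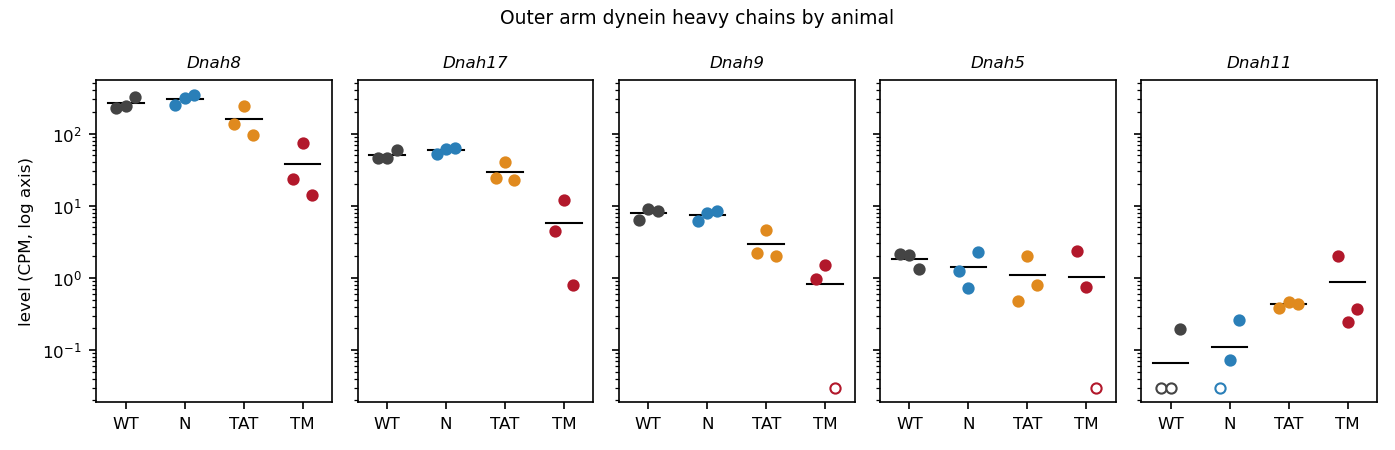
Level of the 5 outer arm heavy chains (y axis, CPM, log axis) in WT, N, TAT and TM (x axis); each point is 1 animal, lines are means and open points at the bottom are samples with 0 counts. *Dnah8*, *Dnah17* and *Dnah9* are lowest in TM, while *Dnah5* and *Dnah11* stay at or below 2.33 CPM in every sample.

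Of the 12 rows of inner arm heavy chains 9 were called lower in TM against WT and none higher, where 30.6% and 27.8% of all genes were. *Dnah12* was the highest of them, at 49.4, 75.8 and 88.2 CPM in WT, 69.8, 77.7 and 85.1 in N, 38.3, 57.3 and 37.4 in TAT and 9.80, 20.3 and 3.82 in TM (-2.54 ± 0.51 SE, adjusted p = 0.00124). TM lay below all other samples. *Dnah1*, *Dnah2*, *Dnah3*, *Dnah6* and *Dnah10* were called lower by 2.47 (*Dnah2*) to 2.94 (*Dnah6*) on the log2 scale. *Dnah10*, with 2.30 to 7.66 CPM in WT, was not called without animal 79781 or 79852 or with only TM and WT in the fit, nor was *Dnah1* without animal 79781. Of the 3 *Dnah14* rows, ENSMUSG00000104003 was at 9.98, 16.3 and 17.2 CPM in WT, 18.7, 18.7 and 22.8 in N, 9.34, 18.9 and 5.15 in TAT and 2.13, 4.61 and 1.18 in TM (-2.32 ± 0.57 SE, adjusted p = 0.00409), and the remaining rows, below 8 CPM in every sample, had values of -2.41 (adjusted p = 0.129) and -2.57 (adjusted p = 0.0715).

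The 3 *Dnah7* paralogs, which lie on chromosome 1 (GRCm38; *Dnah7b* 46066315 to 46373546 and *Dnah7c* 46425592 to 46807476 on the plus strand, *Dnah7a* 53397006 to 53706784 on the minus strand), parted in TM. *Dnah7a* was at 27.8, 61.3 and 52.9 CPM in WT, 42.0, 67.1 and 51.8 in N, 31.8, 53.1 and 20.6 in TAT and 5.63, 13.7 and 3.23 in TM (-2.51 ± 0.54 SE, adjusted p = 0.00191). *Dnah7b* was at 44.2, 45.8 and 54.9 CPM in WT, 45.1, 47.8 and 58.2 in N, 25.1, 35.7 and 19.4 in TAT and 5.73, 11.6 and 4.77 in TM (-2.64 ± 0.40, adjusted p = 0.000211). *Dnah7c* was at 36.1, 37.4 and 52.4 CPM in WT, 46.3, 50.9 and 51.7 in N, 41.3, 44.7 and 29.9 in TAT and 19.8, 27.7 and 65.0 in TM (-0.22 ± 0.34, adjusted p = 0.585). TM of animals 79781 and 79813 thus lay below WT for *Dnah7c*, and TM of animal 79853, which had the lowest summed axoneme level, lay above. The sign of this small difference was not stable: it was 0.10 with total library size and 0.081 without animal 79781.

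The ratio of *Dnah7c* to *Dnah7b*, chosen after its values were seen, was 0.816, 0.815 and 0.954 in WT, 1.03, 1.07 and 0.889 in N, 1.65, 1.25 and 1.54 in TAT and 3.46, 2.40 and 13.6 in TM. TAT and TM lay above all WT animals. On the log2 scale the difference from WT was 0.77 in TAT and 2.49 in TM, each with p = 0.1 in a two-sided exact permutation test (n = 3 against 3), the smallest p this design allows. The ratio of *Dnah7c* to *Dnah7a* differed from WT by 0.34 in TAT, where the groups overlapped (exact permutation p = 0.6), and by 2.50 in TM (exact permutation p = 0.1). The ratio of *Dnah7a* to *Dnah7b* differed by -0.01 between TM and WT (exact permutation p = 1). The 3 genes are similar: of the windows of 100 bases in the longest transcript, 24.9% of *Dnah7c*, 19.96% of *Dnah7a* and 23.5% of *Dnah7b* also occur in another gene, and among the last 500 window starts 22.6%, 22.0% and 0.600%. The paper names Salmon as the counter and the submitters' processing notes name featureCounts, and the deposited counts are estimates, mostly whole. Neither source says outright how reads from shared stretches were assigned, so the levels of these paralogs are uncertain. The part of shared reads in the difference was not tested. All 3 promoters hold the element GTTGCC before the start that RefSeq gives. These windows are shown because the paralogs differ in TM while they share this element (capitals):

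Dnah7a: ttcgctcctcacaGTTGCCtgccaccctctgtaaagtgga

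Dnah7b: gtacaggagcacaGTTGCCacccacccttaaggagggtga

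Dnah7c: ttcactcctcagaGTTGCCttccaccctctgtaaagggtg

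They lie at chr1:53706958-53706997 (minus strand), chr1:46066677-46066716 and chr1:46425286-46425325 (plus strand), with the match 200, 163 and 219 bases before the RefSeq start. The gene spans above are those of GENCODE M21, whose *Dnah7b* begins further upstream, so the *Dnah7b* window lies inside that span. For *Dnah7c* the RefSeq start lies upstream of the GENCODE start. The bases that follow this RefSeq start were not found in the GENCODE transcripts of *Dnah7c*.

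**Figure D4:**
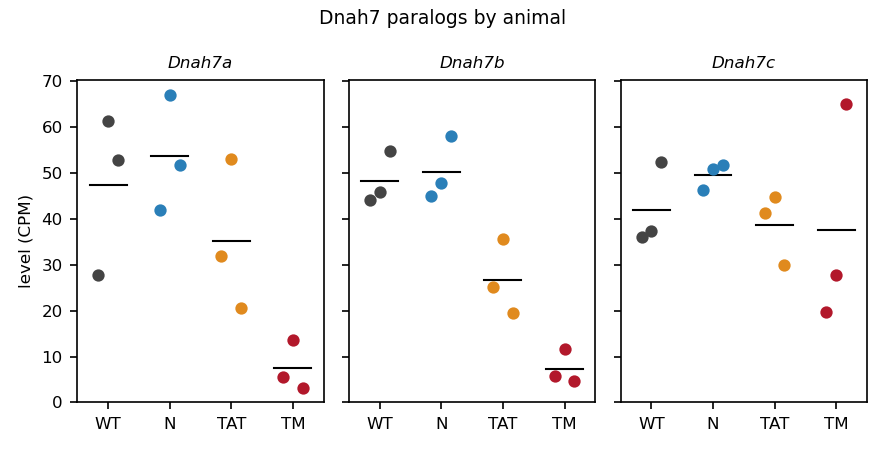
Level of *Dnah7a*, *Dnah7b* and *Dnah7c* (y axis, CPM from 0) in WT, N, TAT and TM (x axis); points are animals and lines are means. *Dnah7a* and *Dnah7b* drop to between 3.23 and 13.7 CPM in TM, while *Dnah7c* stays between 19.8 and 65.0 CPM.

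All 3 rows of intermediate and light chains were called lower in TM, where 30.6% of all genes were. *Dnali1*, a light intermediate chain of inner arms, was at 229, 280 and 251 CPM in WT, 220, 256 and 227 in N, 123, 184 and 100.2 in TAT and 19.2, 48.3 and 5.14 in TM (-3.27 ± 0.64 SE, adjusted p = 0.000990). In every KO animal it was lower in TAT than in N, and lower again in TM. *Dnal1*, a light chain of outer arms, was at 20.3, 49.6 and 37.4 CPM in WT, 37.8, 27.6 and 28.8 in N, 14.7, 22.2 and 12.8 in TAT and 4.76, 9.75 and 2.35 in TM (-2.53 ± 0.51 SE, adjusted p = 0.00120). *Dnal4*, a further light chain, changed less, at 94.7, 124 and 127 CPM in WT, 100.3, 113 and 86.6 in N, 71.4, 96.2 and 44.8 in TAT and 28.2, 38.6 and 19.2 in TM (-1.97 ± 0.34 SE, adjusted p = 0.000483). For both, all TM animals lay below all animals of the other groups. The 4 assembly factors were all called lower, but by unequal amounts. *Dnaaf1* was among the most abundant rows, at 1322, 1376 and 1357 CPM in WT, 1189, 1231 and 1039 in N, 596, 973 and 498 in TAT and 71.3, 256 and 26.8 in TM (-3.40 ± 0.69, adjusted p = 0.00125). *Dnaaf2* was at 81.5, 90.7 and 83.9 CPM in WT, 74.2, 87.6 and 82.6 in N, 58.3, 85.5 and 59.2 in TAT and 29.5, 41.9 and 33.6 in TM (-1.28 ± 0.24, adjusted p = 0.000865). *Dnaaf2* kept the largest share of its WT level among the 51 rows called lower. Of its windows of 100 bases 36.9% also occur in *Gm49383* or *Gm49384*, though 0% of those at the last 500 starts. The part of shared reads in its level was not tested. *Dnaaf5* was at 39.6, 27.4 and 34.3 CPM in WT, 30.2, 30.7 and 27.8 in N, 22.1, 27.0 and 9.86 in TAT and 7.08, 10.5 and 12.9 in TM (-1.77 ± 0.37 SE, adjusted p = 0.00152), and TM of animal 79853 was above its TAT value. *Dnaaf3* was at 76.6, 111 and 85.1 CPM in WT, 74.1, 81.4 and 61.8 in N, 36.3, 46.2 and 24.3 in TAT and 8.54, 12.4 and 1.10 in TM (-3.52 ± 0.64 SE, adjusted p = 0.000627). *Dnaaf3* overlaps on the same strand with *Tnni3*, whose mean was 43.3 CPM in WT and 295 CPM in TM.

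Radial spokes reach from the doublets towards the central pair. Of 8 radial spoke rows 7 were called lower in TM, where 30.6% of all genes were. *Rsph1*, a spoke head protein, was the highest of all 58 rows, at 1624, 2707 and 2423 CPM in WT, 2693, 2848 and 2196 in N, 1518, 2332 and 1357 in TAT and 241, 614 and 61.4 in TM (-2.76 ± 0.65 SE, adjusted p = 0.00320). TAT of animal 79813 lay within the WT range. *Rsph3a*, which encodes a stalk protein, was at 1047, 819 and 856 CPM in WT, 828, 959 and 773 in N, 465, 724 and 397 in TAT and 88.8, 234 and 76.8 in TM (-2.72 ± 0.47 SE, adjusted p = 0.000472). *Rsph3a* and *Rsph3b* share 60.6% and 64.8% of their windows of 100 bases, so their separate levels are uncertain. Spoke heads too differ between tissues: *Rsph6a*, of sperm, was at 200.5, 281 and 279.9 CPM in WT, 243, 219.9 and 174 in N, 113, 180.3 and 86.1 in TAT and 19.2, 46.9 and 4.63 in TM (-3.30 ± 0.66 SE, adjusted p = 0.00119). Its TAT animals all lay below WT. *Rsph4a*, of motile cilia, had 0 to 31 counts in any sample and was not called (1.14 ± 2.08, adjusted p = 0.652). *Rsph9*, a further head protein, was at 142, 208 and 182 CPM in WT, 207, 215 and 166 in N, 107, 147 and 82.4 in TAT and 19.4, 44.4 and 16.8 in TM (-2.65 ± 0.41 SE, adjusted p = 0.000259), with TM apart from all other groups. *Rsph10b* had the smallest p of all rows in TM against WT (-3.20 ± 0.45 SE, adjusted p = 0.000144), at 27.6, 47.6 and 48.3 CPM in WT, 33.8, 43.1 and 38.9 in N, 12.7, 32.8 and 18.1 in TAT and 4.27, 6.10 and 2.28 in TM. *Rsph14* fell by 3.32 and *Rsph3b* fell by 2.59 on the log2 scale.

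*Drc1* and *Drc7* encode parts of the regulatory complex that links neighbouring doublets. Both were called lower in TM, where 30.6% of all genes were. *Drc1* was at 80.4, 97.6 and 104 CPM in WT, 99.4, 99.8 and 94.0 in N, 50.2, 72.3 and 38.8 in TAT and 2.91, 19.7 and 6.24 in TM (-3.15 ± 0.59 SE, adjusted p = 0.000724). *Drc7* was at 12.3, 33.9 and 36.3 CPM in WT, 26.0, 29.0 and 25.6 in N, 18.9, 21.9 and 12.2 in TAT and 1.26, 6.42 and 0.955 in TM (-3.01 ± 0.67 SE, adjusted p = 0.00227). In both, TM of every animal lay below every other sample, and *Drc1* was lowest in TM of animal 79781.

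All 18 CFAP rows were called lower in TM against WT, where 30.6% of all genes were. In the central apparatus, the largest change of all rows was that of *Cfap221*, at 26.9, 42.7 and 25.6 CPM in WT, 25.5, 34.2 and 26.0 in N, 16.9, 19.2 and 8.64 in TAT and 0.776, 3.76 and 0.147 in TM (-4.04 ± 0.78 SE, adjusted p = 0.000935). Every TAT animal lay below every WT and N animal. *Cfap69* was at 258, 480 and 433 CPM in WT, 299, 330 and 310 in N, 135, 215 and 91.6 in TAT and 23.6, 58.2 and 8.37 in TM (-3.57 ± 0.62, adjusted p = 0.000497). It was lowest in TM and intermediate in TAT, without overlap. *Cfap46* was at 59.7, 77.0 and 66.0 CPM in WT, 58.7, 78.6 and 65.3 in N, 42.4, 58.8 and 36.2 in TAT and 3.30, 16.5 and 1.76 in TM (-3.05 ± 0.67 SE, adjusted p = 0.00216), and *Cfap54* at 12.6, 20.0 and 27.9 CPM in WT, 17.7, 25.2 and 28.5 in N, 11.5, 21.9 and 7.26 in TAT and 3.30, 7.29 and 1.18 in TM (-2.21 ± 0.62 SE, adjusted p = 0.00849). *Cfap74* fell by 2.53.

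At the inner arm tether and the spoke base all 4 rows were called lower in TM, where 30.6% of all genes were. *Cfap43* and *Cfap44* encode the tether head of an inner arm dynein. *Cfap43* was at 129, 185 and 189.5 CPM in WT, 159, 168 and 163 in N, 92.3, 131 and 66.9 in TAT and 19.6, 36.4 and 10.3 in TM (-2.84 ± 0.45 SE, adjusted p = 0.000281), with TAT at or below 131 CPM in all animals. *Cfap44* was at 23.5, 92.8 and 109 CPM in WT, 64.9, 87.9 and 80.3 in N, 47.3, 60.8 and 21.7 in TAT and 5.05, 20.3 and 2.28 in TM (-2.82 ± 0.76 SE, adjusted p = 0.00710), and WT animal 79783 lay close to TM of animal 79813. *Cfap57* was at 95.0, 209.9 and 185 CPM in WT, 178, 207 and 185 in N, 99.8, 137 and 65.8 in TAT and 14.0, 43.6 and 2.42 in TM (-2.86 ± 0.76 SE, adjusted p = 0.00643), and *Cfap61*, of the spoke base, fell by 3.11. *Cfap44*, *Cfap54*, *Cfap57* and *Cfap70* were not called without KO animal 79781.

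In the doublet wall, *Cfap45* was at 194, 431 and 391 CPM in WT, 335, 356 and 334 in N, 176, 248 and 125 in TAT and 22.7, 80.8 and 17.1 in TM (-2.93 ± 0.58 SE, adjusted p = 0.00107). *Cfap53* was at 197, 372 and 313 CPM in WT, 277, 294 and 271 in N, 164, 208 and 147 in TAT and 20.1, 62.9 and 10.4 in TM (-3.10 ± 0.58 SE, adjusted p = 0.000750), and *Cfap126* at 146, 283 and 232 CPM in WT, 236, 231 and 200.4 in N, 135, 161 and 86.4 in TAT and 24.7, 53.6 and 8.15 in TM (-2.81 ± 0.57 SE, adjusted p = 0.00129). In these 3 genes every TM animal lay below every other sample. *Cfap52* fell by 3.31. *Cfap20* stood apart within this group, at 65.1, 51.8 and 45.9 CPM in WT, 39.7, 47.9 and 45.3 in N, 27.7, 43.4 and 31.7 in TAT and 17.8, 23.8 and 22.8 in TM (-1.37 ± 0.27, adjusted p = 0.00112). Its TM values lay close together in the 3 animals.

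The remaining 4 CFAPs were placed in no structure of the axoneme here. *Cfap58* was at 84.3, 134 and 111 CPM in WT, 79.8, 74.2 and 64.5 in N, 41.3, 49.0 and 29.0 in TAT and 8.25, 15.0 and 0.808 in TM (-3.64 ± 0.71 SE, adjusted p = 0.00101). Its N animals lay below all WT animals, as in 4 of the 58 rows, against 6.04% of all genes. *Cfap70* was at 91.0, 226 and 170.1 CPM in WT, 197, 249 and 217 in N, 102, 186 and 83.1 in TAT and 21.3, 54.0 and 7.20 in TM (-2.42 ± 0.62 SE, adjusted p = 0.00548). For *Cfap58* and *Cfap70*, TM lay below all other samples. *Cfap36*, the most abundant CFAP, was at 675, 1351 and 957 CPM in WT, 871, 1122 and 1056 in N, 617, 847 and 413 in TAT and 152, 333 and 138 in TM (-2.18 ± 0.42 SE, adjusted p = 0.000914). *Cfap97* was at 254, 537 and 592 CPM in WT, 437, 506 and 506 in N, 266, 393 and 194 in TAT and 68.4, 157 and 74.8 in TM (-2.12 ± 0.42 SE, adjusted p = 0.00109). These last 2 changed less than most axoneme rows, and WT animal 79783 lay far below the other WT animals for *Cfap97*.

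Tektins form filaments along the doublets, and all 5 were called lower in TM, where 30.6% of all genes were. *Tekt5*, on chromosome 16 (10357948 to 10395490, minus strand), was at 91.8, 83.9 and 107 CPM in WT, 75.6, 80.6 and 74.7 in N, 33.5, 48.0 and 19.8 in TAT and 2.04, 12.01 and 1.91 in TM (-3.97 ± 0.69 SE, adjusted p = 0.000468). Its groups did not overlap, and N lay below WT in all animals, as in 4 of the 58 rows, against 6.04% of all genes. *Tekt4* was at 246, 370 and 319 CPM in WT, 299, 257 and 247 in N, 120, 178 and 84.5 in TAT and 13.4, 47.4 and 4.26 in TM (-3.70 ± 0.72, adjusted p = 0.000941). *Tekt1* was at 467, 610.4 and 541 CPM in WT, 520.4, 479.9 and 448 in N, 269.7, 362 and 211 in TAT and 42.0, 101 and 15.5 in TM (-3.25 ± 0.57 SE, adjusted p = 0.000522). All TAT animals lay between N and TM for both. *Tekt2* was at 186, 351 and 251 CPM in WT, 200.1, 221 and 216 in N, 125, 147 and 78.5 in TAT and 14.6, 42.8 and 7.79 in TM (-3.46 ± 0.58 SE, adjusted p = 0.000386), and *Tekt3* at 98.4, 354 and 258 CPM in WT, 243, 291 and 257 in N, 127, 206 and 96.2 in TAT and 20.2, 57.7 and 7.12 in TM (-2.90 ± 0.68 SE, adjusted p = 0.00314). The median of the tektins in TM was -3.46, against -2.55 for the inner arm heavy chains and -2.58 for the assembly factors. The difference between these roles was not tested.

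The antisense row *Dnah2os* (chromosome 11, 69448548 to 69453676, plus strand) lies within *Dnah2* (69420809 to 69549110, minus strand). It had 0, 23 and 29 counts in WT, 0, 0 and 2 in N, 0, 0 and 13 in TAT and 24, 94 and 4 in TM, so it was close to 0 in N. It was called higher in TM against N (adjusted p = 0.0304) and was not called without animal 79781 (adjusted p = 0.217) or 79813 (adjusted p = 0.189). Against WT its change in TM was 0.79 ± 1.77 SE (adjusted p = 0.713). The strand setting of the counting is not stated outright in the sources used here. If counting ignored strand, reads of this row and of *Dnah2* cannot be told apart.

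The KO animals kept the same order in TAT and in TM. In TAT 47 of the 58 rows were highest in animal 79813, intermediate in 79781 and lowest in 79853 (81.0%, against 26.1% of all genes), and in TM 45 rows had that order (77.6%, against 17.9% of all genes). In N 14 rows had it (24.1%, against 17.3%). Rows of 1 library share its cell mixture, so these counts describe 3 animals and no more. Red cell genes had the reverse order in TM: their summed level was 27848, 16469 and 54907 CPM in TM of animals 79781, 79813 and 79853, against 398 to 496 CPM in WT. Of that list 5 of the 6 genes were called higher in TM, against 27.8% of all genes. Their part in the result was not tested.

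Genes that mark the germ cell stages were set beside the axoneme rows. The lists hold no axoneme row, and 4 genes are shared by the elongating spermatid and fibrous sheath lists. The median log2 fold change in TAT against WT was -0.30 for 16 spermatocyte markers, -1.16 for 15 round spermatid markers and -1.77 for 14 elongating spermatid markers, and that of the axoneme rows, -0.71, fell between those of the first and the second list. In TM the medians were -2.37, -3.50 and -4.15, with -2.78 for the axoneme rows. In TM 15 of 16, 15 of 15 and 14 of 14 were called lower, against 30.6% of all genes. In TAT 1, 1 and 9 were, against 4.61% of all genes. Relative to the summed round spermatid markers, the summed axoneme level was 3.03 to 3.49 times as high in WT and 3.66 to 3.85 times in N, and then 4.18 to 5.22 times in TAT and 5.23 to 8.07 times in TM, so that the groups did not overlap. Relative to the spermatocyte markers the ratio was 2.64 to 2.77 (WT), 2.53 to 2.66 (N), 1.93 to 2.25 (TAT) and 1.39 to 2.33 (TM), lower in TAT and TM than in WT in every animal. The part of a changed germ cell mixture in the fall of axoneme rows was not tested.

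Other genes of the tail and of microtubule transport were counted in the same way. Over all genes, 30.6% were called lower and 27.8% higher in TM against WT. In TAT these shares were 4.61% and 14.4%. Of 40 further axoneme genes 39 were called lower in TM against WT (median -3.05), among them *Dnajb13*, of the spokes (-1.75 ± 0.24 SE, adjusted p = 0.000143), *Enkur* (-3.23 ± 0.50) and *Ccdc63* (-3.33 ± 0.53), and 1 was called in TAT. All 14 fibrous sheath and outer dense fibre genes, which sheathe the axoneme, were called lower in TM (median -3.76) and 4 in TAT (median -1.52). *Odf2*, of the outer dense fibres, fell by 3.65 in TM, *Odf3* by 3.90 and *Gapdhs*, the sperm form of a glycolytic enzyme, by 4.67. Of 29 genes of intraflagellar transport and its motors, 26 were called lower in TM with a smaller median of -1.59. *Ift172* fell by 3.42, *Kifap3* by 2.11 and *Ift57* by 2.00, while *Ift20* stayed at 219 CPM in WT and 231 in TM. Cytoplasmic dynein 1 and dynactin, which move cargo in most cells, had a median of -0.42 over 23 genes, with 10 called lower and 4 higher. *Dynlrb1* rose from a mean of 105 CPM in WT to 829 in TM (2.93 ± 0.31, adjusted p = 3.88e-05), *Actr1b* rose by 1.32 and *Dynll2* fell by 2.73. Of the 10 tested regulators of ciliary and spermatid genes 9 were called lower in TM, including *Foxj1*, a master factor of motile cilia (-3.82 ± 0.49, adjusted p = 9.25e-05), *Rfx1* (-2.64 ± 0.41), *Rfx2* (-3.46 ± 0.60) and *Crem* (-2.83 ± 0.38, adjusted p = 0.000112).

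**Figure D5:**
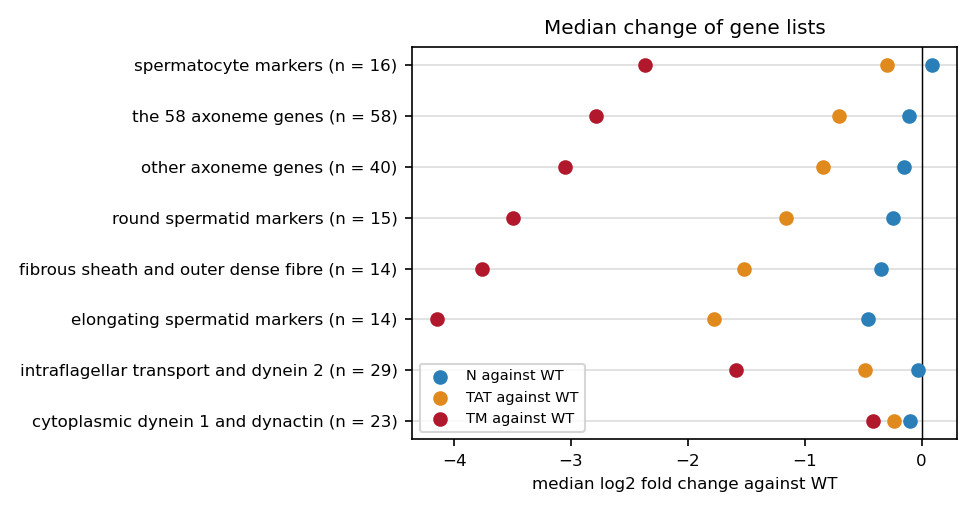
Median log2 fold change against WT (x axis) of the axoneme rows and of 7 other gene lists (y axis, number of genes tested in brackets) in N, TAT and TM. The axoneme rows, at -0.71 in TAT and -2.78 in TM, lie between spermatocyte and round spermatid markers, and cytoplasmic dynein lies nearest to 0 in TAT and TM.

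Markers of other cells were also followed, because axonemes occur in multiciliated duct epithelium and because the pieces differ in stroma. Not all genes chosen for multiciliated epithelium had a row: 9 did, and 7 of these were tested. The summed level of the 9 was 141 to 177 CPM in WT and 31.1 to 65.8 CPM in TM. Of the 7, *Krt18* and *Pax8* were called higher in TM, *Foxj1* and *Epcam* lower, and 3 were not called. *Pax8* was at 0 CPM in WT and at a mean of 0.496 CPM in TM. The summed spermatogonial markers were 38.5 to 62.9 CPM in WT and 88.7 to 217 in TM, Sertoli cell markers 957 to 2045 and 3260 to 3494, endothelial markers 9.67 to 20.2 and 43.5 to 78.6, macrophage and leukocyte markers 13.2 to 19.7 and 52.8 to 103, and myoid markers 315 to 514 and 611 to 2037. These sums were thus higher in every TM animal than in any WT animal. In that order 4 of 8, 3 of 10, 6 of 7, 4 of 7 and 4 of 6 genes were called higher, and 2 Sertoli and 1 myoid gene lower, where 27.8% of all genes were called higher and 30.6% lower. TAT also lay above every WT animal for Sertoli (3526 to 4055 CPM), spermatogonial (147 to 178), endothelial (30.4 to 88.0), leukocyte (51.6 to 68.5) and red cell markers (1705 to 3093). N lay above every WT animal for spermatogonial (88.9 to 111), Sertoli (2249 to 2396), endothelial (21.4 to 29.5), leukocyte (20.4 to 26.8) and red cell markers (588 to 614). Leydig cell markers were at 2780 to 4877 CPM in WT and 2406 to 3610 in TM, and overlapped, with 3 of 7 called higher and 3 lower. The part of these cells in the axoneme result was not tested.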

How the data were processed

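The authors primed RNA at the poly(A) tail with unique molecular identifiers, tagmented the libraries and sequenced them on an Illumina NextSeq. They deposited expected counts per gene (estimated counts, mostly whole, not normalized), made with STAR on GRCm38 in nf-core/rnaseq and Salmon by the paper's account. The submitters' processing notes name STAR 2.6.1d, Subread 2.0.1 with featureCounts, Picard 2.23.9, FastQC 0.11.9, MultiQC 1.12 and limma. The strand of counting is not stated outright, nor are the annotation release and removal of duplicates given. The name of the deposited count sheet is cut off at "Forwa", which may refer to forward-strand counts.

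Libraries of 1 animal and region were summed and rounded (12 from 17). R 4.3.3 with edgeR 4.0.16 was used: TMM, filterByExpr by group, glmQLFit, glmQLFTest and p values adjusted by Benjamini-Hochberg over all genes tested, with calls at adjusted p below 0.05 and fold above 1.5. N, TAT and TM were compared with WT in 1 fit of 12 libraries, so the spread of all groups enters each test. For comparisons of KO regions the fit held 9 libraries and a block for the animal, because the titles place regions in the same animals. Deviations from the region means correlated at a mean of 0.0921 within (0.0164 to 0.349, 9 pairs) and -0.0458 between animals (18 pairs). Deviations from a region mean cancel out over its animals, so the second mean follows largely from the first and is no separate evidence. The fit tested 58 rows against WT and 57 within KO (*Rsph4a* was too low).

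Totals of 6349355 to 65236050 counts set the precision, for counting error only. Genes were named by rule: the 3 highest of each role, the 8 largest and 8 smallest called changes in TM, the 5 smallest p in each other comparison, and up to 3 of each list; others, where named, were chosen after their values were seen. Positions come from GENCODE M21 and promoters from RefSeq GRCm38.p6. The members and lists were chosen with earlier results of these data known. Alternatives were total library size or RLE size factors, DESeq2 1.42.0, limma-voom (3.58.1) on 17 libraries or with a random block for the animal, no filter on low counts, pieces as replicates, testis 1 only of animal 79813, thinned counts, no fold threshold, only the groups compared, no block and each animal left out. The paper's enrichment analyses were not used.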

Additional observations from a re-analysis of the deposited data

Results flagged for a closer look

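Dixon's ratio was computed over the single libraries of N (4), TAT (4) and TM (6), 39 groups in all. It used the summed level of the axoneme rows and of each role. Chance alone is taken to mark about 1 in 20, but that rate assumes independent libraries, and the pieces of animal 79813 are not independent. The ratio passed its limit in 3 of the 39 groups. The summed level of the 5 CFAPs of the doublet wall was 884 CPM in N of animal 79853, with 924 to 932 CPM in the other N libraries. The antisense row *Dnah2os* was at 0.0630 CPM in N of animal 79853 and at 0.704 CPM in TAT of the same animal, with 0 in the other libraries of either region. Where all other libraries hold 0, the ratio takes its largest value whatever the level. These marks rest on 2 counts in N and 13 counts in TAT.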

How the results depend on the processing

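Of the 51 rows called lower in TM against WT, 44 were called in all of the 17 alternatives that gave a value. The exceptions were *Cfap44*, *Cfap54*, *Cfap57*, *Cfap70*, *Dnah1*, *Dnah9* and *Dnah10*. The count was 49 to 53 over the fits of all animals, where 25.7% to 34.3% of all genes were called lower. It was 44 to 53 when an animal was left out, where 21.5% to 31.1% were. No called row changed direction. Of the rows not called, *Dnah7c* changed sign with total library size (0.10) and without animal 79781 (-0.73 to 0.081 over the animals left out), and *Rsph4a* without animal 79781 (-0.63 to 6.54). The count of rows higher in TM against WT was 1 by DESeq2 (30.6% of all genes) and 0 to 1 without an animal (21.4% to 24.9%).

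Rows lower in TAT against WT numbered 0, where 4.61% of all genes were called lower. They numbered 2 with RLE size factors (9.05% of all genes), 11 by DESeq2 (13.7%) and 7 by limma-voom on 17 libraries (11.1%). With only the 2 groups in the fit they numbered 22 (14.9%). With the animal as a random replicate block they numbered 6 (9.82%), and without an animal 0 to 18 (0.278% to 11.2%). Rows lower in TAT against N numbered 0 (0% of all genes), 12 by DESeq2 (9.65%) and 0 to 2 without an animal (0% to 1.94%). The cause was not tested.

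In TM against N, 52 rows were lower (28.5% of all genes), 51 with no replicate block (28.1%) and 12 to 52 without an animal (7.31% to 26.3%). The 1 higher row (*Dnah2os*) became 0 with only testis 1 of animal 79813, with thinned counts, and 0 to 1 without an animal. In TM against TAT, 46 rows were lower (17.7% of all genes), 34 with no replicate block (13.5%) and 0 to 47 without an animal (0% to 17.7%). By DESeq2, by limma-voom on 17 libraries and with pieces as replicates 1 was higher (16.2%, 17.4% and 16.3% of all genes). Leaving out 1 animal leaves 2 per region. Depth limits rows such as *Dnah11*, *Rsph4a*, *Dnah5* and *Dnah2os*, with at most 96 counts in a sample.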
